A study of Rattus norvegicus with 10 samples.

Results

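The corticotropin-releasing hormone (CRH) family was followed in the supraoptic nucleus (SON) of the rat as 7 genes: the 4 ligand genes Crh, Ucn, Ucn2 and Ucn3, the 2 receptor genes Crhr1 and Crhr2, and Crhbp, the gene of the binding protein. They were taken by symbol from the 32402 genes listed in the deposited tables. All 7 were found, each under 1 Ensembl identifier, and all 7 had enough counts to be tested among 15311 genes. They were chosen as the named genes of the family, with no threshold on a measured value, though earlier results of these data were known.

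The SON is a hypothalamic nucleus of large (magnocellular) neurones that make vasopressin and oxytocin. Both groups were Wistar Han rats, with no transgene or drug: 5 euhydrated libraries came from animals that could drink freely and 5 dehydrated libraries from animals whose water had been withdrawn for 72 h. Water access was set by cage, at random. The cage of each library is not given, so differences between cages cannot be told apart from those of water access. A corer of 1 mm took the nuclei of both sides out of 12 slices, so each punch also holds glia, vessels and tissue at the edge of the nucleus. Polyadenylated RNA was sequenced from stranded libraries. The labels do not say that each library was a separate animal, so the p-values measure the spread between these libraries, which may be partly technical.

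CRH is best known as the peptide of parvocellular neurones of the paraventricular nucleus that drives ACTH release from the pituitary, and it also acts as a transmitter within the brain. CRH and its relatives, the urocortins, act on a pair of Gs-coupled receptors: CRH and urocortin bind CRHR1, while urocortin, urocortin 2 and urocortin 3 bind CRHR2, and CRH-binding protein is a secreted protein that sequesters CRH and urocortin. Magnocellular neurones have been described as a site of Crh and urocortin expression under osmotic stress. In bulk punches, more cells that make a transcript and more transcript per cell cannot be told apart.

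Gene counts summed to between 24268398 and 28491926 per library. Avp and Oxt, the genes of vasopressin and oxytocin that define the tissue, stood at 6153 ± 1218 and 2993 ± 251.7 CPM (counts scaled to a common library size with TMM factors; SD, n = 5) when euhydrated and at 8475 ± 928 and 3394 ± 468 CPM when dehydrated. For both genes the groups overlapped, and neither difference had an edgeR adjusted p under 0.05 (0.08 for Avp, 0.254 for Oxt). Avp passed in 3 of 21 alternative ways of processing, and Oxt in none. The 3 were DESeq2 (log2 fold change 0.46, adjusted p = 0.0149), limma-voom (0.48, 0.02) and edgeR without euhydrated 2 (0.36, 0.0463). Transcripts of genes with different lengths cannot be ranked by CPM, so levels are compared here only between libraries of the same gene.

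Of the 7 members 2 rose, 0 fell and 5 did not pass the threshold of an adjusted p of 0.05 in edgeR's quasi-likelihood test. Over all genes tested 12.7% passed, 7.79% higher and 4.90% lower in dehydrated libraries. The median log2 fold change of the members was 0.42, against -0.0058 over all genes tested. Both genes that rose encode ligands, Crh and Ucn2. A further ligand gene, Ucn, had the next-largest fold after Ucn2 but missed the threshold, whereas Ucn3, both receptors and the binding protein had changes whose 95% intervals included 0.

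**Figure D1:**
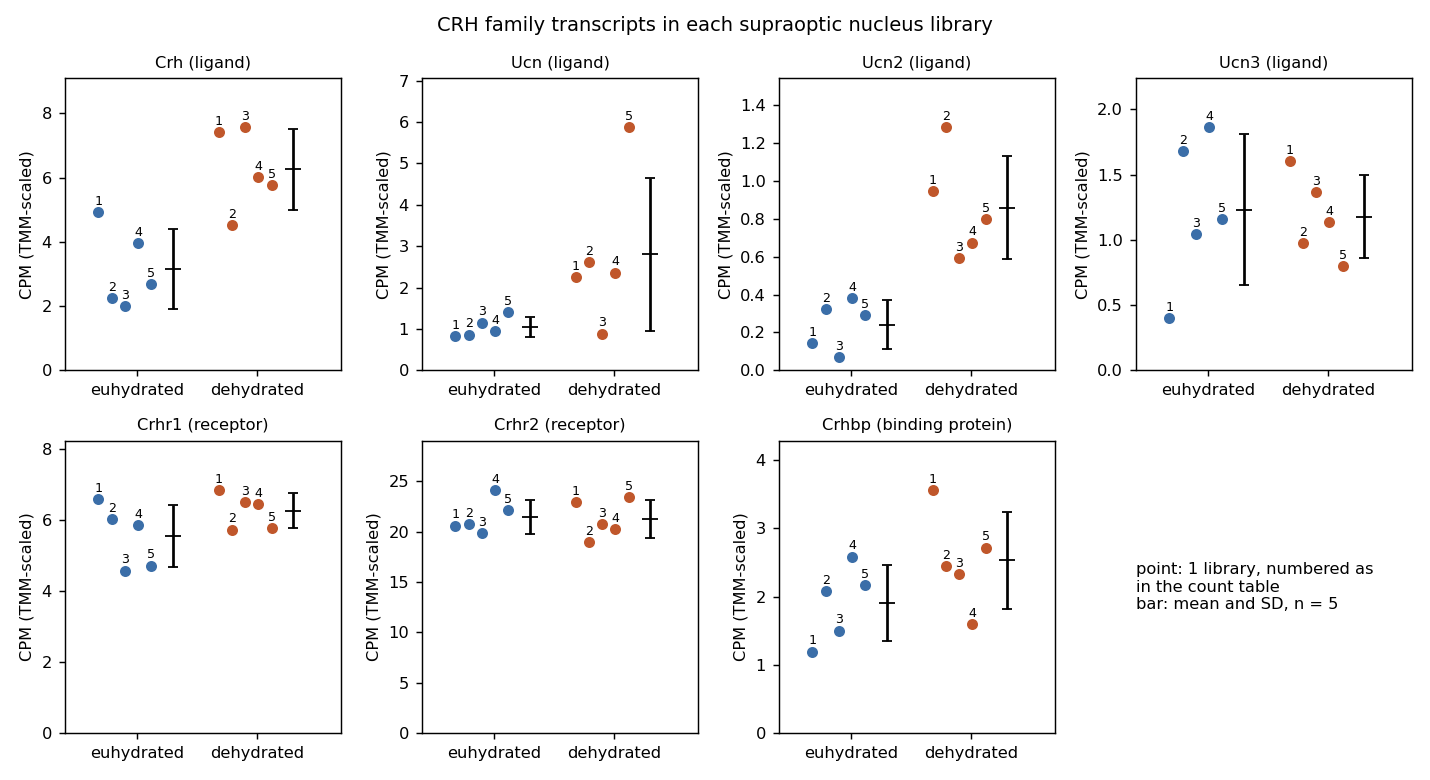
TMM-scaled CPM of each member on a linear axis from 0, with 1 point per library, numbered as in the count table, and bars for the mean and SD of 5 libraries. Ucn2 is the member whose groups do not overlap; for Crh and Ucn 4 of 5 dehydrated libraries lie above every euhydrated one.

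Ucn2 (ENSRNOG00000020655) encodes urocortin 2, a ligand selective for CRHR2. It had the fewest counts of the family. The euhydrated libraries 1 to 5 held 4, 9, 2, 10 and 8 Ucn2 counts, and the dehydrated libraries 1 to 5 held 26, 33, 16, 16 and 20. Every dehydrated library was above every euhydrated one, at 0.591 to 1.28 CPM against 0.0697 to 0.380 CPM. Over all genes tested, 10.9% had groups that did not overlap, 6.90% with dehydrated libraries higher and 3.97% with them lower. The mean of Ucn2 went from 0.241 ± 0.129 to 0.859 ± 0.273 CPM (SD, n = 5 per group), a 3.54-fold rise with a 95% interval of 2.07- to 6.06-fold (log2 fold change 1.83 ± 0.36, SE; edgeR adjusted p = 0.00329).

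The rise of Ucn2 passed the threshold without any single library, with adjusted p of 0.00403 to 0.0108 in edgeR. The authors' deposited table gives Ucn2 a log2 fold change of 1.84 and a p of 1.17e-05 but lists no adjusted p, and DESeq2 run here likewise returned none. The gene was not tested under a filter of at least 1 CPM in 5 libraries. Its call ended with the level of magnocellular markers as a covariate (log2 fold change 2.52 ± 0.63, SE; edgeR adjusted p = 0.0654). That level did not overlap between the groups, so the fit cannot separate it from dehydration. The lowest adjusted p of any alternative was 0.00135, from edgeR with no filter on low counts.

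Crh (ENSRNOG00000012703), the gene of CRH itself, had more counts than Ucn2. Its counts in euhydrated libraries 1 to 5 were 136, 63, 57, 104 and 74, and in dehydrated libraries 1 to 5 they were 204, 116, 205, 143 and 144. Scaled to depth, the euhydrated libraries ran from 1.99 to 4.92 CPM and the dehydrated ones from 4.52 to 7.58 CPM. The groups overlapped through 2 libraries, euhydrated 1 at 4.92 CPM and dehydrated 2 at 4.52 CPM. The means were 3.16 ± 1.24 and 6.26 ± 1.27 CPM (SD, n = 5 per group), and the fitted rise was 1.99-fold with a 95% interval of 1.38- to 2.87-fold (log2 fold change 0.99 ± 0.24, SE; edgeR adjusted p = 0.0203).

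Crh lost its call once the erythrocyte marker level entered the fit (0.86 ± 0.31 on the log2 scale, edgeR adjusted p = 0.158). The call was likewise lost with the magnocellular level (1.08 ± 0.47, 0.390) and without dehydrated 3 (0.91, 0.0507). The magnocellular level did not overlap between the groups, so that fit cannot separate it from dehydration. The erythrocyte level was lower on average in dehydrated libraries, with overlapping ranges, so the fit with it separates the level from dehydration only in part. The lowest adjusted p among the alternatives was 0.00022, from DESeq2. The call also ended among libraries 1 and 2 of each group alone, with the replicate number as a block (0.77, edgeR adjusted p = 0.0721).

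Within a library, Crh can be set against other transcripts of the same punch, which removes depth and scaling. The log2 ratio of Crh to Oxt counts ran from -10.7 to -9.34 in euhydrated and from -9.45 to -8.65 in dehydrated libraries, a difference of 0.87 between the means with groups that overlapped slightly. Against Avp the log2 ratio was -11.6 to -10.5 and -11.0 to -9.92, a smaller difference of 0.57, with wider overlap. Crh against Crhbp differed by 0.63 between the means, with euhydrated libraries at 0.12 to 2.04 and dehydrated libraries at 0.88 to 1.91.

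Ucn (ENSRNOG00000006090) encodes urocortin, which binds both receptors. The euhydrated libraries 1 to 5 held 23, 24, 33, 25 and 39 Ucn counts, a spread little wider than counting error (variance 1.51 times the mean). The dehydrated libraries 1 to 5 held 62, 67, 24, 56 and 147. These were far more unequal, with a variance 32.6 times the mean: dehydrated 5 stood at 5.88 CPM, dehydrated 1, 2 and 4 at 2.26 to 2.61 CPM, and dehydrated 3 at 0.887 CPM, inside the euhydrated range of 0.831 to 1.41 CPM. The library with the least Ucn among the dehydrated ones, dehydrated 3, had the highest Crh, at 7.58 CPM. Dehydrated 1 was nearly level with it in Crh, at 7.43 CPM, with Ucn at 2.26 CPM.

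With that spread, Ucn averaged 1.04 ± 0.243 CPM when euhydrated and 2.80 ± 1.85 CPM when dehydrated (SD, n = 5 per group). The log2 fold change was 1.42 with a 95% interval of 0.47 to 2.36, and it missed the threshold (edgeR adjusted p = 0.055). The authors' deposited table gives Ucn the same log2 fold change and an adjusted p of 0.00166, from DESeq2. The edgeR value passed without dehydrated 3 (log2 fold change 1.65, adjusted p = 0.00495) and without dehydrated 5 (0.95, 0.0429). It also passed with the replicate number as a block (1.29, 0.0222), but that block pairs libraries that share only a number. With the erythrocyte covariate it was 0.90 (edgeR adjusted p = 0.394), and the alternatives spanned adjusted p of 0.00166 to 0.513.

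**Figure D2:**
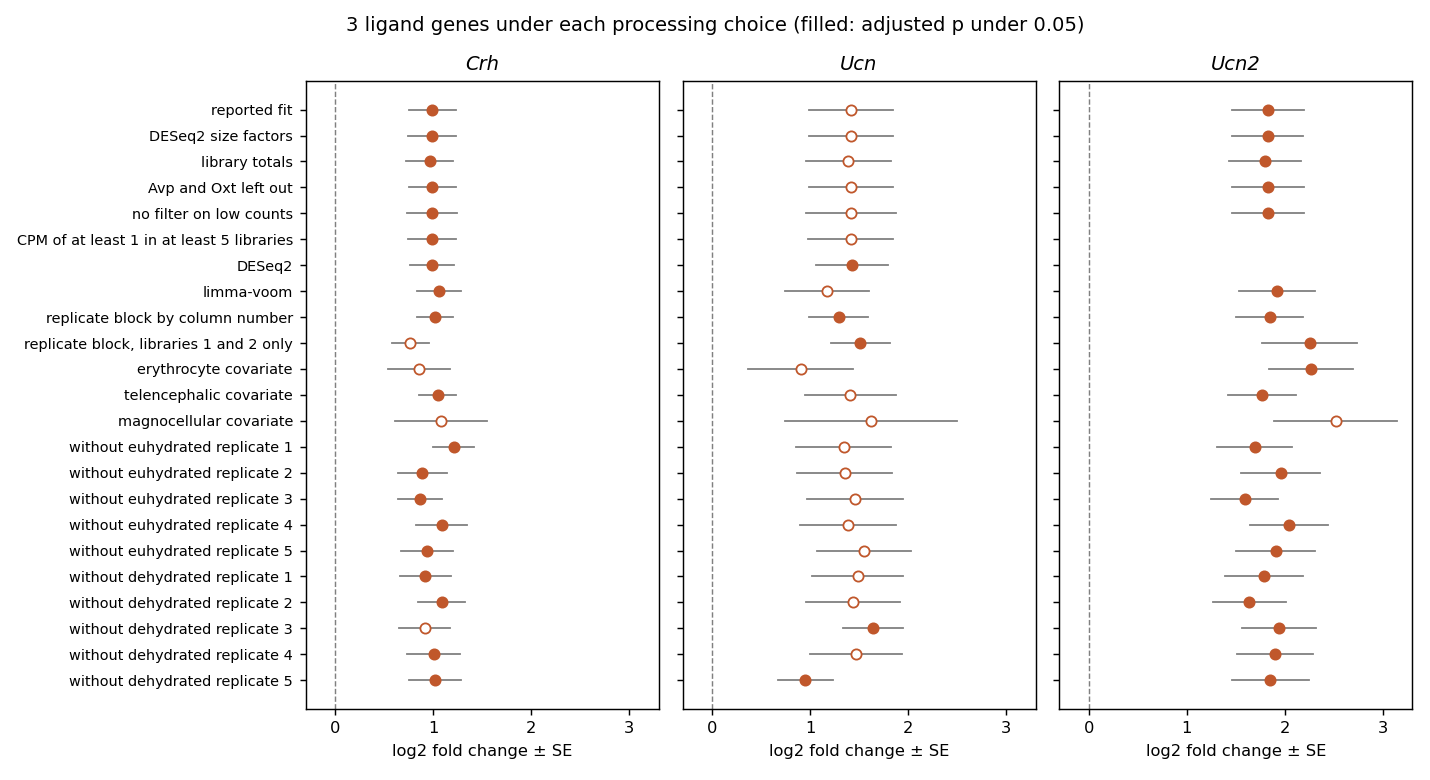
Log2 fold change (dehydrated over euhydrated) with its SE, on the x axis, of Crh, Ucn and Ucn2 under each processing choice, listed on the y axis; filled points have an adjusted p under 0.05. All points lie above 0: Crh between 0.77 and 1.21, Ucn between 0.90 and 1.65 and Ucn2 between 1.59 and 2.52, with Ucn filled in 5 settings other than the reported fit. Ucn2 has no point for DESeq2, which gave it no adjusted p, or for the filter of 1 CPM in 5 libraries.

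The windows around the start sites of Ucn and Ucn2 are shown because these urocortin genes were the members with the largest fitted folds. They run from 250 bases before the start to 50 after it in RefSeq's GRCr8 table; the build of the count table is not given in the sources used here, and the windows were matched by gene identifier. The table held windows for 6 of the 7 members, Crh not among them. Capitals mark a full cyclic AMP response element (CRE, TGACGTCA) or an AP-1 site (TGANTCA), letters that read the same on both strands. The windows lie on the plus strand at chr6:30957836-30958135 (Ucn) and chr8:118515861-118516160 (Ucn2), written 5′ to 3′.
Ucn: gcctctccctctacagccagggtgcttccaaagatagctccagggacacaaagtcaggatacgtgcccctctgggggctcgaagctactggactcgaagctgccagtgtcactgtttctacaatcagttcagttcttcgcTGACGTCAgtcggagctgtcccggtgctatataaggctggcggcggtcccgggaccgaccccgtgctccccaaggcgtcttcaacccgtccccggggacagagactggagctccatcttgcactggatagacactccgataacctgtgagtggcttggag
Ucn2: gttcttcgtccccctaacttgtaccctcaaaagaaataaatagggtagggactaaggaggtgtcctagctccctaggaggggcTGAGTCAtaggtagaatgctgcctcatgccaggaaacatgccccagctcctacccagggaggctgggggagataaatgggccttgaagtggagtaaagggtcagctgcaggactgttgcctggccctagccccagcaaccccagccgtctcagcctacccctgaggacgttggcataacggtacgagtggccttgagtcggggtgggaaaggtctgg
The Ucn window holds TGACGTCA at position -110 from the start site, and 1.83% of all 33469 windows in the table hold these letters. The Ucn2 window holds TGAGTCA at -167, and 7.33% of all windows hold TGANTCA. Neither full element was found in the windows of Ucn3, Crhr1, Crhr2 or Crhbp. The shorter CRE core TGACG, on either strand, stood in the windows of Ucn3, Crhr2 and Crhbp and, within the full element, in that of Ucn, against 21.2% of all windows. A match of letters is a description of these windows only.

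Ucn3 (ENSRNOG00000017759) encodes urocortin 3, also selective for CRHR2. The euhydrated libraries 1 to 5 held 11, 47, 30, 49 and 32 Ucn3 counts and the dehydrated libraries 1 to 5 held 44, 25, 37, 27 and 20. All dehydrated values lay within the euhydrated range of 0.398 to 1.86 CPM. Its log2 fold change was -0.05 with a 95% interval of -0.75 to 0.64 (edgeR adjusted p = 0.941), an interval of 0.596-fold to 1.56-fold, and its sign turned in 8 of 22 alternatives.

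Neither receptor gene passed the threshold. Crhr1 (ENSRNOG00000004900), the main receptor of CRH, had 182, 168, 131, 154 and 130 counts in euhydrated libraries 1 to 5 and 188, 147, 176, 153 and 144 in dehydrated ones. The dehydrated libraries, at 5.72 to 6.84 CPM, lay in the upper part of the euhydrated range of 4.57 to 6.58 CPM or, for dehydrated 1, above it. The log2 fold change of Crhr1 was 0.18 with a 95% interval of -0.06 to 0.41 (edgeR adjusted p = 0.344).

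Crhr2 (ENSRNOG00000011145), the receptor of the urocortins, had the most counts of the family. It stood at 20.6, 20.8, 19.8, 24.2 and 22.1 CPM in euhydrated libraries 1 to 5 and at 22.9, 19.0, 20.8, 20.3 and 23.4 CPM in dehydrated ones. The groups covered nearly the same range. The log2 fold change was -0.01 with a 95% interval of -0.16 to 0.13 (edgeR adjusted p = 0.925), so the interval reaches from 0.895-fold to 1.10-fold. The log2 ratio of Crhr1 to Crhr2 counts was -1.97 ± 0.24 in euhydrated and -1.76 ± 0.15 in dehydrated libraries (SD, n = 5), and the ranges overlapped.

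Crhbp (ENSRNOG00000017890), the gene of the binding protein, stood at 1.19, 2.08, 1.50, 2.59 and 2.17 CPM in euhydrated libraries 1 to 5. In dehydrated libraries 1 to 5 it stood at 3.57, 2.45, 2.33, 1.60 and 2.72 CPM. Only dehydrated 1 and 5 lay above all euhydrated libraries. The log2 fold change was 0.42 with a 95% interval of -0.06 to 0.90 (edgeR adjusted p = 0.254), and no alternative passed (adjusted p of 0.107 to 0.517). The value was 0.79 with the erythrocyte covariate, 0.80 with the magnocellular one, 0.88 with the replicate block among libraries 1 and 2, and 0.26 without dehydrated 1.

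**Figure D3:**
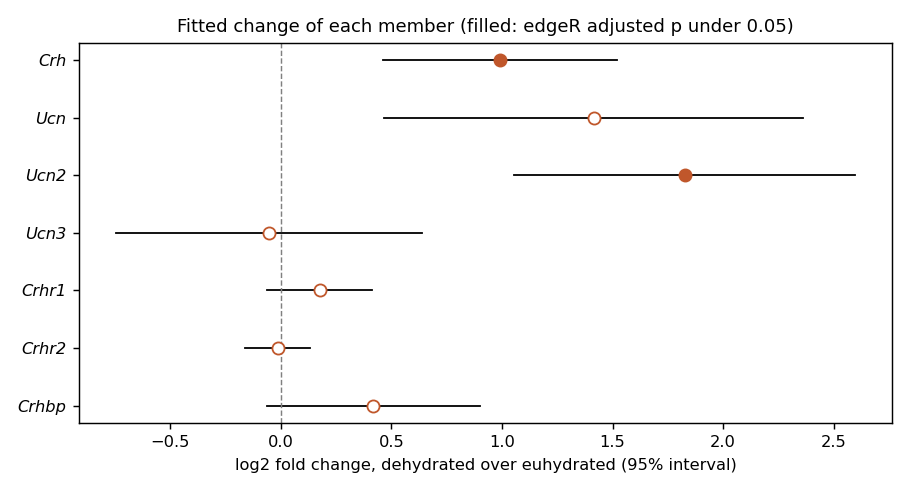
Log2 fold change of each member, dehydrated over euhydrated, on the x axis, with its 95% interval; filled points have an edgeR adjusted p under 0.05. Crh (0.99) and Ucn2 (1.83) are filled, the interval of Ucn (0.47 to 2.36) lies above 0 without a filled point, and the other 4 intervals cross 0.

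Members were also compared across libraries after the group means were removed, on log2 CPM over 10 libraries that share their punch and depth. Of the 21 pairs of members 4 had a Pearson r beyond 0.6 in size, and r ran from -0.50 to 0.74. The highest r was between Crh and Crhr1 (r = 0.74, Spearman rho = 0.73) and the lowest between Ucn and Crhr1 (r = -0.50, rho = -0.76), and Crhbp had r of 0.67 with Ucn2, 0.68 with Ucn3 and 0.68 with Crhr2. Crh and Ucn had r = -0.37 (rho = -0.61), and Crh and Ucn2 r = -0.0060. The counts of Ucn2 and Ucn3 were low, so these values are descriptions only.

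Punches can take different amounts of other tissue, and some cells near the SON are known sources of Crh and Crhbp. All 4 erythrocyte markers tested were lower without passing, and the summed level of the list ran from 978 to 1951 CPM in euhydrated and from 570 to 1387 CPM in dehydrated libraries. Between libraries of a group their mean level had r of 0.62 with Ucn3 (rho = 0.49), 0.59 with Crhbp (rho = 0.55) and 0.47 with Ucn2 (rho = 0.56), over 10 libraries. With Crh r was -0.23 (rho = -0.12), with Ucn -0.28 (rho = -0.042), with Crhr1 -0.23 and with Crhr2 -0.043. The level averaged 7.40 log2 CPM in euhydrated and 6.62 in dehydrated libraries, with overlapping ranges. A fit with this covariate thus separates it from dehydration only in part. Of 5 magnocellular markers 3 rose: Scn7a (1.44-fold, edgeR adjusted p = 0.0339), Pdyn (2.04-fold, 0.000261) and Caprin2 (3.50-fold, 6.36e-06). The covariate used 3 of the markers, Avp, Oxt and Scn7a, and left out Pdyn and Caprin2. Their mean was 8.80 to 9.05 log2 CPM in euhydrated and 9.15 to 9.58 in dehydrated libraries. That covariate thus did not overlap between the groups. Of 8 markers of excitatory neurones of the telencephalon, all tested, 1 was higher and none lower, with sums of 275 to 499 and 209 to 374 CPM. Their mean level followed Crh between libraries of a group (r = 0.61, rho = 0.66, 10 libraries), and with it as a covariate Crh rose by 1.05 ± 0.19 on the log2 scale (edgeR adjusted p = 0.00293).

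GABAergic neurones, a known site of Crhbp, had 0 of 8 tested markers past the threshold and sums of 1119 to 1251 CPM against 1012 to 1285 CPM; a further marker, Npy, was listed at 0 throughout. Of 7 peptide genes of other hypothalamic neurones 4 were tested and none passed, with sums of 62.5 to 119 CPM against 72.1 to 168 CPM, most of it Trh, while Hcrt, Agrp and Kiss1 were under 0.31 CPM in each group mean. Choroid plexus and ependyma, where Crhr2 is known to be expressed in the rat, had 0 of 4 tested markers past the threshold and sums of 10.5 to 29.8 CPM against 12.1 to 22.1 CPM. The part of these tissues in the levels of the family was not tested.

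Whether reads of a neighbouring gene could enter a member's count cannot be told from the tables, since the strand setting is not given in the sources used here. In the GRCr8 table no protein-coding gene overlaps a member. The neighbours of Ucn2 are Col7a1, a collagen gene, which rose by 0.40 in log2 units (edgeR adjusted p = 0.00687), and Pfkfb4, at 0.15 (0.542). Col7a1 lies only 374 bases from Ucn2, and Pfkfb4 4710 bases from it. The mean of Col7a1 was 7.5 CPM (euhydrated) and 9.9 CPM (dehydrated), far above the 0.241 and 0.859 CPM of Ucn2. Whether reads of Col7a1 entered the Ucn2 count was not tested. The neighbours of Ucn are Mpv17, at -0.11 (0.388), and Trim54, at 0.45 (0.622). They lie 1696 and 389 bases from Ucn. Beside Crh lie Trim55, at -0.18 (0.759), and Cp, the ceruloplasmin gene, which rose by 0.32 (0.0161). Beside Crhr2 lie Gars1, which rose by 0.28 (2.66e-05), and Inmt, at -0.63 (0.0637). The tested neighbours of the other members, Akr1c15 (Ucn3), Arf2 (Crhr1) and Aggf1 (Crhbp), did not pass.

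Genes around the family were read from 4 lists fixed by known role, counted in the same fit. Of 7 genes of peptide maturation 6 were tested: 3 rose, 0 fell and 3 did not pass, with a median log2 fold change of 0.12. Pcsk1, a prohormone convertase, went from 44.5 ± 6.03 to 75.2 ± 3.81 CPM (SD, n = 5), and every dehydrated library, at 70.2 to 80.6 CPM, was above every euhydrated one (1.69-fold, edgeR adjusted p = 0.000116). Pam, the enzyme that amidates peptide ends, rose 1.55-fold (1.94e-07). Pcsk2, the other neuroendocrine convertase, rose by 0.13 on the log2 scale (0.0153), a call lost in 4 of 22 alternatives, scaling by library totals (0.10, 0.0588) among them.

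Of 16 regulators of the Crh gene, all tested, 5 rose, 2 fell and 9 did not pass (median 0.03). Creb3l1, a transcription factor that acts on neuropeptide genes, stood at 16.4 to 25.0 CPM in euhydrated and at 66.8 to 92.1 CPM in dehydrated libraries (3.76-fold, edgeR adjusted p = 8.06e-06). The activity-induced factors Nr4a1 and Fos rose 2.32-fold (0.0132) and 2.21-fold (0.0151). Both calls ended with the replicate number as a block (edgeR adjusted p = 0.0995 and 0.118). That block pairs libraries that share only a number, so it is a weak check on either gene. Esr2, for oestrogen receptor beta, fell from 2.25 ± 0.478 to 0.949 ± 0.214 CPM, or -1.24 in log2 units (edgeR adjusted p = 0.000855), with groups that did not overlap; the call ended with the replicate block among libraries 1 and 2 (-1.03, 0.0955). Neither Nr3c1 (glucocorticoid receptor; -0.11 in log2 units, 0.201) nor Creb1 (-0.09, 0.577) passed.

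Of 30 genes of signalling downstream of the receptors 5 rose, 0 fell and 25 did not pass (median -0.0037), with small changes. The regulatory subunits of protein kinase A Prkar2a and Prkar1a rose 1.18-fold (edgeR adjusted p = 0.00107) and 1.12-fold (0.000636); the call of Prkar1a ended with the replicate block among libraries 1 and 2 (0.108). Ramp2, a partner protein of class B receptors, rose 1.15-fold (0.0219), a call lost in 5 of 22 alternatives, among them without dehydrated 3 or 5 (0.0572 and 0.0501), with the erythrocyte covariate (0.198) and with the replicate block among libraries 1 and 2 (0.484). Adcy8, an adenylyl cyclase, rose 1.12-fold (0.0336), a call lost in 11 of 22 alternatives, 7 of them with 1 library left out.

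Of 13 genes of the pituitary-adrenal axis and corticosteroid feedback 10 were tested: 3 rose, 1 fell and 6 did not pass (median 0.17). Sgk1, a kinase induced by corticosteroids, rose 2.06-fold, from 35.0 to 47.0 CPM in euhydrated to 57.8 to 105 CPM in dehydrated libraries (edgeR adjusted p = 0.00363). Mc4r, a melanocortin receptor, rose 1.66-fold (0.0161; 0.133 with the erythrocyte covariate), and Fkbp5, a chaperone gene induced by glucocorticoids, 1.51-fold (0.000253). Nr3c2, for the mineralocorticoid receptor, fell by 0.18 on the log2 scale (0.0449), a call lost in 15 of 22 alternatives, 9 of them with 1 library left out. Tsc22d3, a corticosteroid feedback gene of the same list, did not pass (1.11-fold, edgeR adjusted p = 0.175). Pomc, the precursor of ACTH, stood at 1.70 and 1.53 CPM in the 2 groups (log2 fold change -0.15, edgeR adjusted p = 0.663).

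With the magnocellular level as a covariate, Pam, Creb3l1 and Fkbp5 were the only ones of these named pathway genes to keep their calls. The edgeR adjusted p was then 0.0847 for Pcsk1, 0.122 for Sgk1, 0.143 for Prkar1a and 0.173 for Prkar2a. It was 0.351 for Nr4a1, 0.487 for Fos and 0.394 for Esr2, whose log2 fold change was -0.91. This covariate did not overlap between the groups, so the fit cannot separate it from dehydration. Over all genes tested 206 passed with it, against 1942 without. A call lost in this fit therefore says little about the gene.

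**Figure D4:**
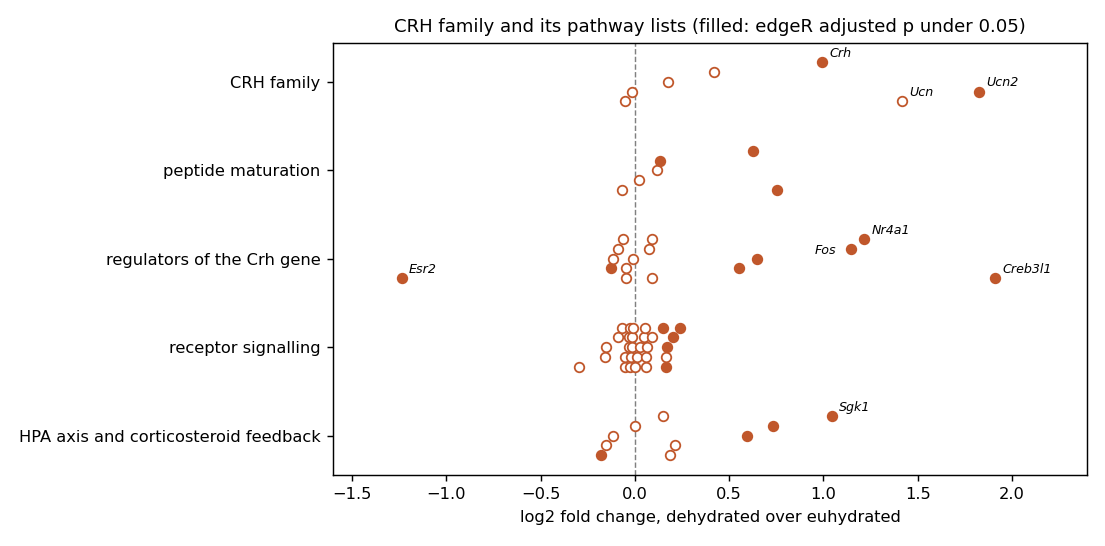
Log2 fold change (dehydrated over euhydrated) on the x axis for the 7 members and the tested genes of 4 pathway lists, 1 point per gene, spread vertically only for legibility; filled points have an edgeR adjusted p under 0.05. The receptor signalling genes lie close to 0, with a median of -0.0037, while Ucn2 (1.83), Ucn (1.42) and Crh (0.99) stand to the right.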

How the data were processed

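RNA-seq libraries of 5 euhydrated and 5 dehydrated SON samples were compared. The submitters' processing notes name STAR, featureCounts and DESeq2 beside CASAVA and FastQC; the build, annotation and strand setting stand in no source used here. The deposited count table holds unnormalised counts by Ensembl identifier. Per the file headers, the authors' second deposited table holds DESeq2 output: log2 fold changes, their errors, p-values raw and adjusted, the test statistic (a score) and a signal of normalised counts. Columns were tied to samples by name; 3 euhydrated columns, whose numbers the labels give in differing ways, were tied to the group only, and libraries carry their column's number.

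From the counts, genes passing edgeR's filterByExpr (15311) were scaled by TMM factors. They were tested by quasi-likelihood (robust glmQLFit, then glmQLFTest, no covariate) in edgeR 4.0.16 under R 4.3.3, with Benjamini-Hochberg adjustment over all genes tested. In the paragraphs on neighbours and pathway lists, a lone value in parentheses after a fold or log2 fold change is this adjusted p. SEs and 95% intervals come from the same fit. Log2 CPM used a prior count of 2. Depth bounds the precision of the low genes, whose counts are printed. No pair of libraries of one group looked like a repeat deposit (chi-square over its degrees of freedom, 4.86 to 12.1).

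The members and lists were chosen with earlier results of these data known. Beside the members, the text names up to 4 genes per pathway list, taken by size of change among those called. Each had a mean of at least 1 CPM. The members' neighbours and the 3 genes most like each member are named too. A few other list genes (Nr3c1, Creb1, Pomc, Tsc22d3) were added for their roles. Alternatives were other scalings and filters, DESeq2 1.42.0, limma-voom (limma 3.58.1), replicate blocks, 3 marker covariates and each library left out. The blocks paired libraries by column number, which no label gives as a pairing.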

Additional observations from a re-analysis of the deposited data

Results flagged for a closer look

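In 3 of 48 groups of 5 libraries tested, 1 library lay apart from the other 4; chance alone gives about 1 in 20 groups. Pam in euhydrated 2 stood at 651 CPM, with the other euhydrated libraries at 736 to 755 CPM. Pcsk2 in euhydrated 5 stood at 160 CPM, against 168 to 171 CPM, and Fkbp5 in the same library at 29.4 CPM, against 32.6 to 33.1 CPM. No value of the 7 family genes stood apart in this way, that of Ucn in dehydrated 5 included.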

How the results depend on the processing

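The count of genes past the threshold, 1942, was 1494 to 1756 with each library left out, and 492 with a replicate block among libraries 1 and 2 only, 906 with the erythrocyte covariate and 206 with the magnocellular covariate. Library totals turned its split from 1192 higher and 750 lower to 904 and 1173. With each library left out, log2 fold changes ran from 0.86 to 1.21 for Crh, 0.95 to 1.65 for Ucn, 1.59 to 2.04 for Ucn2, -0.28 to 0.14 for Ucn3, 0.11 to 0.24 for Crhr1, -0.051 to 0.032 for Crhr2 and 0.26 to 0.55 for Crhbp. Crh lost its call with the replicate block among libraries 1 and 2 only (0.77), the erythrocyte covariate (0.86) and the magnocellular covariate (1.08), and Ucn2 with the magnocellular covariate (2.52). Ucn gained one with DESeq2 (1.42), the replicate block by column number (1.29) and that among libraries 1 and 2 only (1.51). Avp gained one with DESeq2 (0.46) and limma-voom (0.48). The sign of Ucn3 turned with limma-voom (0.084), the block among libraries 1 and 2 (0.42), the erythrocyte covariate (0.55) and the magnocellular covariate (0.40). That of Crhr1 turned with the block among libraries 1 and 2 (-0.0089), and that of Crhr2 with this block (0.0094) and the magnocellular covariate (0.10). Oxt turned with the same block (-0.017) and the magnocellular covariate (-0.22), which is built in part from Oxt. Ucn2 had no adjusted p in DESeq2 and was not tested under the filter of 1 CPM in 5 libraries. Why these values moved was not tested. The block among libraries 1 and 2 has fewer samples. The erythrocyte covariate was lower on average in dehydrated libraries, and the magnocellular covariate did not overlap between the groups. The numbers of the libraries share only a name: same-numbered libraries had correlations of deviations from the group means of -0.068 to 0.14, 2 of 10 libraries correlated best with their own number, and the replicate block by column number gave 1956 genes past the threshold.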

Other observations

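Other transcripts followed single members from library to library once the group means were removed. The values below are Pearson r over 10 libraries, picked as the highest among about 14018 genes with a symbol and a mean of at least 1 CPM, so high values arise by the choice alone. Crh was most like Doc2a (r = 0.98, Spearman rho = 0.99), Rnaseh1 (0.95, 0.90) and Mpzl1 (0.94, 0.96), and Ucn2 was most like Atp10b (0.96, 0.93), Banp (0.94, 0.95) and Cab39 (0.94, 0.92). For Ucn the highest were AABR07006724.1 (r = 0.93, rho = 0.55), Med31 (0.91, 0.59) and Emc2 (0.89, 0.89); without the 2 libraries whose Ucn was farthest from the median, the first fell to r = 0.35 and the second to 0.46, so these rest on those libraries. Ucn3 was most like AABR07002997.1 (0.91), Myd88 (0.91) and Arhgap45 (0.90). Crhr1 was most like Nefl (0.92), Ube3d (0.91) and Pwp2 (0.90), Crhr2 like Psma3l (0.94), Ccdc59 (0.93) and Ift80 (0.91), and Crhbp like Cemip2 (0.94), Fubp3 (0.94) and Zdhhc16 (0.92).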
